A study of Mus musculus with 3 samples.

Results

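Fos, Jun, Ier3, Id1, Plk2 and Cdkn1a are 6 regulators that serum, growth factors or cell stress induce, and they were followed here in a comparison of mouse spleen RNA with a reference RNA. They were chosen by name from the annotation of the probes, and the names were picked on the log ratios of these same arrays, so their values are given as a description with no test. All 6 were found, on 7 probes, among 6077 genes measured on all arrays, and 0 further probes carried a member's symbol beside another gene's.

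The samples form 1 group of 3 two-colour arrays. Commercial total RNA of mouse spleen was amplified to cRNA and labelled with Cy5, a red dye. It was set against cRNA of UMRR, a commercial universal reference RNA that pools RNA of mouse cell lines, labelled with Cy3, a green dye. Both cRNAs came from a single round of amplification. Every array used the same catalogue items, and the labels give no strain, age, sex or number of animals, so the spread between arrays may be technical. A deposited value is a signed log ratio whose base and numerator are not stated. A negative value is taken as likely lower in spleen than in UMRR, because spleen carried the red dye, which is usually the numerator, and because most blood cell markers, given near the end with their exceptions, had positive ratios. The sample titles name UMRR ahead of spleen, which could mean the opposite order, and with no dye swap, dye effects cannot be told apart from differences in RNA. An exact 0 was read as no measurement. In tissue RNA, fewer cells of a type and less RNA per cell cannot be told apart. The arrays hold no count of reads, and the number of arrays limits the precision.

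Immediate early genes are transcribed within minutes of a stimulus without new protein synthesis, because the factors that switch them on already sit in the cell. Fos and Jun proteins pair through leucine zippers to form AP-1, a transcription factor that carries the signal on to later genes. Ier3 is a short-lived protein that modulates survival and MAP kinase signalling, and Id1 lacks a DNA-binding region and holds E proteins away from DNA. Plk2 is a polo-like kinase induced by serum and by p53, and Cdkn1a, also called p21, is the inhibitor of cyclin-dependent kinases through which p53 halts the cell cycle. In spleen, AP-1 acts in activated lymphocytes. E proteins, the partners of Id proteins, direct the development of B and T cells, which is not confined to spleen.

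The promoters of 5 members are shown, and Id1 had no window in the promoter set used. They are given because a promoter can carry sites through which such signals act. Each line gives the 150 bases ahead of the annotated transcript start, 5′ to 3′ on the gene's strand, from RefSeq on GRCm38.p6, with the motif named for it in capitals.
Fos: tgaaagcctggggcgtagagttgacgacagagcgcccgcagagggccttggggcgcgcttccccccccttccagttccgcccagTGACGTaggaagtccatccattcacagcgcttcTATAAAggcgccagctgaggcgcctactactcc
Jun: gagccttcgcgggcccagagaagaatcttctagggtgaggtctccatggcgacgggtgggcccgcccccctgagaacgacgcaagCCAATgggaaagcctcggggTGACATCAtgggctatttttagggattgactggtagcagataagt
Ier3: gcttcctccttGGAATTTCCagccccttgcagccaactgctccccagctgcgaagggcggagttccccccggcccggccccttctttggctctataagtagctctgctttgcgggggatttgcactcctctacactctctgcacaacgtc
Plk2: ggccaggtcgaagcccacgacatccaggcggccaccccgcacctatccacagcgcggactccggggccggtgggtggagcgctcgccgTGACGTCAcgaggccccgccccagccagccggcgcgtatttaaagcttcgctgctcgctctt
Cdkn1a start 1: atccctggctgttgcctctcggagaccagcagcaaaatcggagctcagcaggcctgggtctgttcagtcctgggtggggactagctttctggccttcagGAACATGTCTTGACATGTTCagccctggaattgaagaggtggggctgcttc
The Fos stretch lies at chr12:85473740-85473889 on the plus strand, and its capitals mark TGACGT, the core of the cAMP response element (CRE), and a TATA box, TATAAA. The Jun stretch lies at chr4:95052223-95052372 on the minus strand, and its capitals mark an NF-Y box, CCAAT, and TGACATCA, a variant of the AP-1 site. The Ier3 stretch lies at chr17:35821563-35821712 on the plus strand, with GGAATTTCC, a sequence of the NF-kB binding type. The Plk2 stretch lies at chr13:110394894-110395043 on the plus strand, with the full CRE, TGACGTCA. Cdkn1a has 2 starts in the table, and the stretch at chr17:29090829-29090978, on the plus strand and upstream of the other, holds a p53 site with 1 base off the consensus.

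The motifs were chosen after these promoters had been read, and both strands of windows from 250 bases before to 50 bases after each start were searched. The CRE core stood at -66 to -61 from the Fos start, where the base ahead of the start is -1, and 7.51% of all 32851 windows held it. In the Plk2 window the full CRE stood at -62 to -55, and it occurred in 1.79% of windows. It contains the core on both strands. The AP-1 variant stood at -45 to -38 in Jun (3.62% of windows), the NF-kB type sequence at -139 to -131 in Ier3 (0.317%), and the p53 site at -51 to -32 in Cdkn1a (0.0883%, with up to 1 base off the consensus allowed). A GC box, GGGCGG, was present in a window of each of the 5 members, for Cdkn1a at start 2 only. It was in 35.7% of all windows. Counted by gene, 2852 of the 4916 measured genes with a window held it, 616 held the CRE core and 167 the full CRE. The plain AP-1 site was searched as TGANTCA with any base at N, so its share may include looser matches. That pattern and the CArG box that serum response factor binds were in 0 of the 6 member windows. They were in 7.81% and 1.63% of all windows. Bases more than 250 ahead of a start were not searched, so a site farther upstream would have been missed. These matches describe letters and not bound sites, and the arrays do not measure binding.

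**Figure D1:**
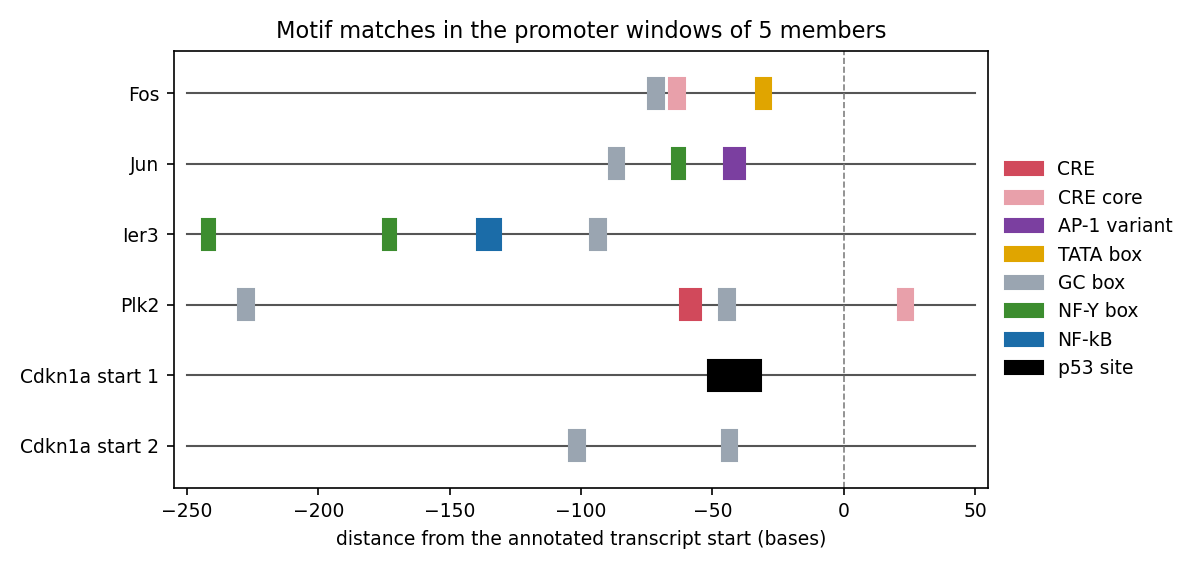
Motif matches on both strands in the 6 promoter windows of 5 members, by distance from the annotated transcript start in bases (dashed line). The CRE core of Fos and the full CRE of Plk2 both lie between -66 and -55, and the p53 site of Cdkn1a lies at -51 to -32 from the upstream start. The CRE cores inside the full CRE of Plk2 are not drawn.

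All 6 members had negative log ratios on all 3 arrays, and 43.6% of the 6077 genes did so. Because that sign was known when the members were picked, nothing is read from the count. Their means ran from -3.67 for Plk2 to -2.02 for Jun, with a median of -2.27, against a median of -0.03 over all genes. Of all genes, 1.25% had a mean at or below that of Jun. A log ratio of -3.67 is a 12.7-fold difference if the logs are in base 2 and 39.1-fold if they are natural, lower in spleen under the likely direction and higher under the opposite one. The same holds for all folds and ranks below, which count from the most negative mean.

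Fos, the AP-1 partner with a very short-lived message, had log ratios of -2.46, -2.86 and -2.49 on arrays 1 to 3, and a mean of -2.60 ± 0.23 (SD, n = 3). Array 2 stood lowest, and arrays 1 and 3 lay close together. Its mean was the 24th most negative of the 6077 genes, a difference of 6.08-fold in base 2 or 13.5-fold in natural logs. Jun, its partner, had -2.12, -2.05 and -1.90, a mean of -2.02 ± 0.11 (SD, n = 3) and rank 76. The Fos and Jun values did not overlap: the highest Fos ratio, -2.46, lay below the lowest Jun ratio, -2.12.

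Ier3, the survival and MAP kinase modulator, had -2.25, -2.25 and -2.14, with a mean of -2.22 ± 0.064 (SD, n = 3) and rank 55. Arrays 1 and 2 were equal to the second decimal, and array 3 was nearest to 0. Its SD was below the median SD of a gene, 0.11.

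Id1, the inhibitor of E proteins, was the member with 2 probes. Probe 7031 had -2.12, -1.97 and -2.14 (mean -2.08 ± 0.091, SD, n = 3), and probe 15761 had -2.39, -2.38 and -2.12 (mean -2.30 ± 0.15, SD, n = 3). The probes differed by -0.27, -0.41 and 0.02 on arrays 1 to 3, probe 15761 minus probe 7031, so they differed on 2 arrays and met on array 3, and their ranges overlapped. Averaged, Id1 had -2.26, -2.18 and -2.13, a mean of -2.19 ± 0.063 (SD, n = 3) and rank 57.

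Plk2, the stress-responsive polo-like kinase, had the largest ratio of the 6, with -3.64, -3.40 and -3.96, a mean of -3.67 ± 0.28 (SD, n = 3) and rank 4. Its 3 values spanned 0.56, the widest range among the members, with array 3 lowest, yet the highest of them was still below every value of the other five. Cdkn1a, the p53 target that blocks cyclin-dependent kinases, had -2.36, -2.52 and -2.07, a mean of -2.32 ± 0.23 (SD, n = 3) and rank 44. Array 3 was nearest to 0 for Cdkn1a, as for Jun, Ier3 and the average of the Id1 probes. It was farthest from 0 for Plk2 and for probe 7031 of Id1.

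**Figure D2:**
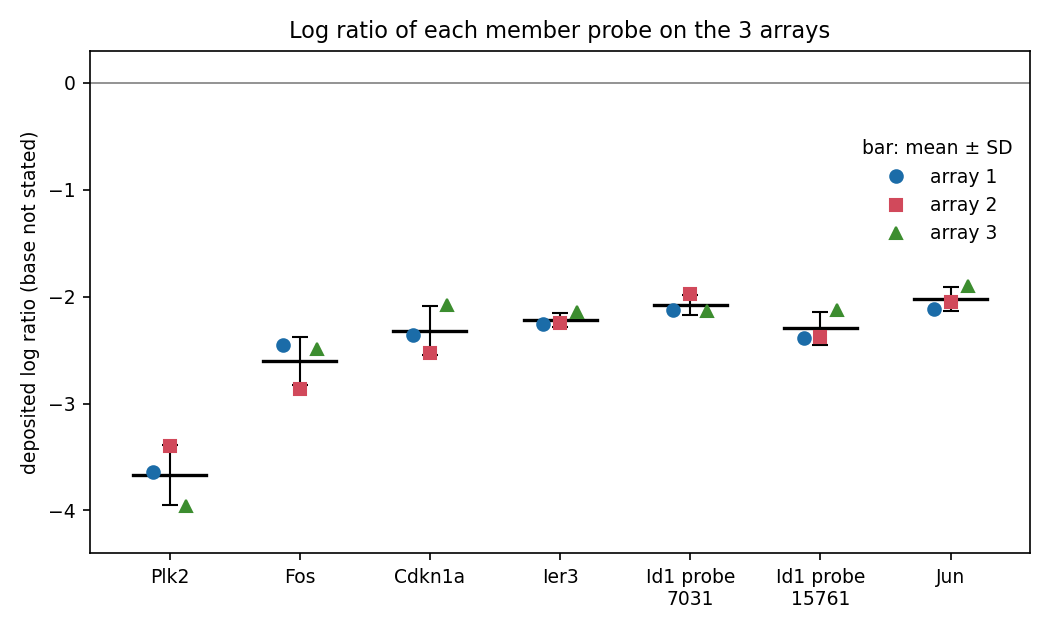
Deposited log ratio (base not stated) of the 7 member probes on arrays 1, 2 and 3, ordered by gene mean, with black bars for the mean ± SD. Plk2 lies between -3.96 and -3.40, below all others, and the other six probes lie between -2.86 and -1.90.

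By mean, the order from the lowest was Plk2, Fos, Cdkn1a, Ier3, Id1 and Jun. Plk2 stood 1.06 below Fos, with no overlap. Fos and Cdkn1a overlapped, as did Cdkn1a and Ier3, and Ier3 and Id1, which were 0.03 apart. Id1 and Jun were 0.17 apart with no overlap, though probe 7031 of Id1 overlapped Jun. Their order turned with the running median removed, at -1.94 for Id1 and -2.25 for Jun over 5 rows and -2.22 and -2.28 over 20 rows. Jun then also stood below Cdkn1a (-2.21) and Ier3 (-2.20) over 5 rows. Over 20 rows Ier3 was at -2.39, below Jun, and Cdkn1a was at -2.27. Under either setting Plk2 and Fos stayed lowest, and Id1 rather than Jun was the highest member. Levels of different genes were not compared, since each ratio is relative to the same gene in UMRR.

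**Figure D3:**
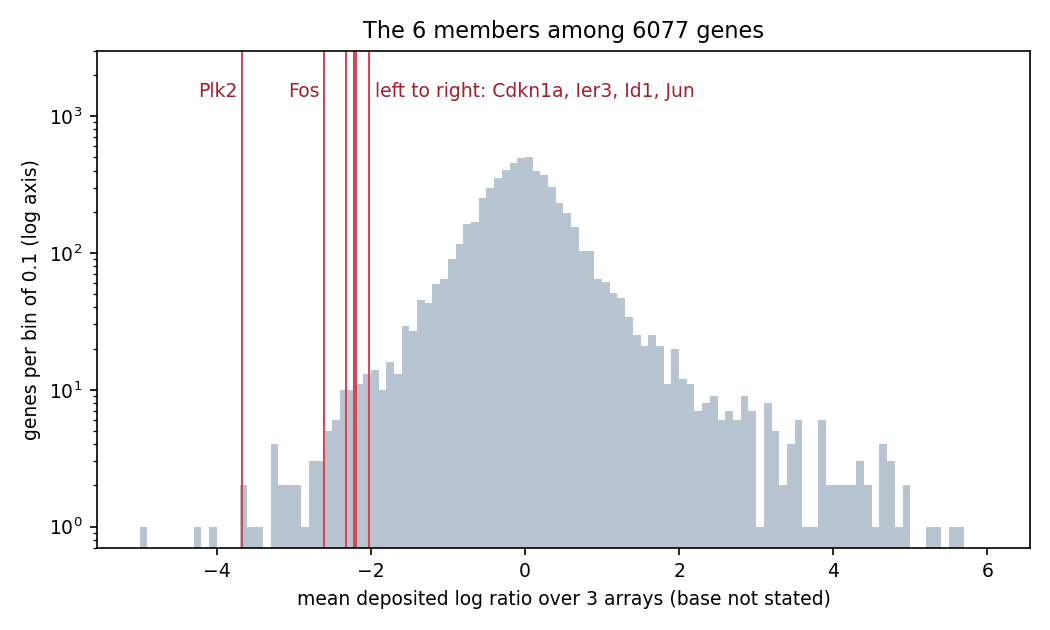
Histogram of the mean log ratio of 6077 genes over 3 arrays (bins of 0.1, log axis for the number of genes), with red lines at the 6 members. Plk2 at -3.67 and Fos at -2.60 stand apart, and Cdkn1a, Ier3, Id1 and Jun lie between -2.32 and -2.02.

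The genes with the most similar ratios were found as the 3 with the smallest root mean square difference from a member over the 3 arrays. For Ier3 and Id1 each was the other's nearest gene (0.04). That value rests on the average of the 2 Id1 probes, which themselves differed by -0.27 and -0.41 on arrays 1 and 2. Fos was nearest to the mitophagy gene Bnip3 (0.10), the growth factor binding protein gene Igfbp6 (0.16) and the cathepsin gene Ctsm (0.17). Jun was nearest to the lactate dehydrogenase gene Ldhb (0.07), Irak1bp1 (0.07) and Ift43 (0.07). Besides each other, Ier3 had Tpi1, a glycolytic enzyme gene (0.08), and Pcbd1 (0.10), and Id1 had Pcbd1 (0.09) and Higd1a (0.09). Cdkn1a was nearest to Ppl, the periplakin gene (0.09), Anxa8 (0.11) and Map6 (0.11). Plk2 had its nearest genes farther off, with 0.31 for Ankrd1, 0.44 for Tnfrsf12a and 0.46 for Zfpm2. With 3 arrays and 1 contrast, likeness means hardly more than a ratio of like size.

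Values on an array followed the numbering of the probes in part: deviations from the mean of the arrays correlated at 0.436 to 0.583 between adjacent table rows. Around the member probes, the median ratio of measured probes within 5 rows on either side lay between -0.45 and 0.78 on any array. The lowest single neighbour had a mean of -2.45, beside Cdkn1a. With a running median over 5 rows on either side subtracted, a setting that can also remove real ratios, the means ran from -3.28 for Plk2 to -1.94 for Id1.

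Genes that work with the members were counted on lists of AP-1, early response, Id and p53 genes, and of stress responses. Of 217 other genes on the 14 lists, 87 had a probe in the annotation and 65 were measured on all 3 arrays. By limma, which tests each gene's mean ratio against 0, with an adjusted p under 0.05 over all genes, positive calls were made for 22 of the 65 (33.8%), negative calls for 28 (43.1%) and none for 15. Over all 6077 genes 33.2% were called positive and 37.1% negative (70.3% in all), so these shares were close to the background at this threshold. The median of the 65 was -0.15. Of the 65, Chac1 alone had a mean below that of Jun, the highest member. Dusp4 and Perp, each measured on 2 arrays and so not among the 65, also had values below that mean.

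Other AP-1 genes went both ways: 2 of the 3 measured had positive ratios and 1 a negative one. Maf, a large AP-1 family factor of macrophages and lymphocytes, averaged 1.18 ± 0.16 (SD, n = 3; limma adjusted p = 1.24e-05), and Batf, a partner of Jun proteins in lymphocytes, averaged 1.13 ± 0.23 (SD, n = 3; adjusted p = 3.77e-05), or 0.71 with the trend over 5 rows removed. Jund, a Jun relative present in resting cells, averaged -0.21 ± 0.022 (SD, n = 3; adjusted p = 0.0174). Its call ended without array 1 (adjusted p = 0.0909), without array 3 (0.106) and with that trend removed (0.0634). Batf3 was measured on arrays 1 and 3, at 0.92 and 1.12.

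Of 19 early transcription factors 2 were measured, and both were negative. Nr4a2, an orphan nuclear receptor of the early response, had -1.09, -1.71 and -0.49 (mean -1.10 ± 0.61, SD, n = 3; limma adjusted p = 0.00194), the widest spread among the measured genes of the response lists. The call of Nr4a2 ended with 0 kept as a value (0.102, with its mean unchanged) and without moderation of the variance (0.131). Srf, the serum response factor itself, averaged -0.25 ± 0.14 (SD, n = 3; adjusted p = 0.0187), and its call ended without array 3 (0.162), with 0 kept (0.105), with the trend over 5 rows removed (0.130) and without moderation (0.133). Both probes of Nr4a1 and the probe of Nab1 were at 0 on all 3 arrays.

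Early effectors and feedback genes went both ways. Mcl1, a survival protein of the Bcl2 family, averaged 1.10 ± 0.12 (SD, n = 3; limma adjusted p = 1.05e-05). Sgk1, a kinase induced by serum and glucocorticoids, averaged -0.71 ± 0.068 (SD, n = 3; adjusted p = 5.87e-05). Rhob, a small GTPase, had a mean of -0.10 ± 0.15 (SD, n = 3) and did not pass (adjusted p = 0.273). Dusp4, a phosphatase that switches off MAP kinases, was measured on arrays 1 and 3, at -2.32 and -2.55, while Dusp6 and Spry1 were at 0 on all 3. None of the 20 secreted serum response products had a probe in the annotation used.

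Kinases and factors that act ahead of Fos and Jun were positive for 4 of 5 measured genes. Elk4, which binds the Fos promoter together with serum response factor, averaged 1.24 ± 0.072 (SD, n = 3; limma adjusted p = 3.75e-06). Creb1, which binds the CRE, averaged 0.53 ± 0.068 (SD, n = 3; adjusted p = 0.000266), or 0.22 with the trend over 5 rows removed. Araf, a kinase of the MAP kinase cascade, averaged 0.31 (0.15 with 0 kept and 0.17 with that trend removed), and Map2k2, a kinase of the same cascade named after its value was seen, 0.17. The call of Map2k2 ended without array 1 (adjusted p = 0.130), array 2 (0.0667) or array 3 (0.222) and with a trend over 20 rows removed (0.670), and over 5 rows its sign turned (-0.35, adjusted p = 0.00252). Mapk14, the p38 stress kinase, was negative at -0.65 ± 0.20 (SD, n = 3; adjusted p = 0.0004), and its call ended with the trend removed (-0.08, adjusted p = 0.225) and without moderation (0.0583).

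The Id, E protein and BMP list had 9 other measured genes, with 3 positive calls, 2 negative calls and 4 genes without a call, and a median of -0.06. Acvr1, a BMP type I receptor that signals to Id genes, averaged -1.53 ± 0.084 (SD, n = 3; limma adjusted p = 1.5e-06), and Bambi, a decoy receptor of the same pathway, 1.07 ± 0.032 (SD, n = 3; adjusted p = 6.17e-06). Tcf3, an E protein that Id1 binds, averaged 0.56 ± 0.044 (SD, n = 3; adjusted p = 0.000165), or 0.27 with the trend over 5 rows removed. Tcf4, another E protein and named after its value was seen, averaged -0.10 ± 0.028 (SD, n = 3) and did not pass (adjusted p = 0.196). The relatives Id3 and Id2 lay nearer to 0. Id3 had -0.42, -0.68 and -0.23 (mean -0.44; adjusted p = 0.00428, 0.0913 with 0 kept and 0.120 without moderation). Id2, named after its value was seen, had 0.53, 0.08 and 0.30 (mean 0.30; adjusted p = 0.0204), and its call ended without array 1 (0.19, adjusted p = 0.136), with 0 kept (0.163) and without moderation (0.188). Id4 was measured on arrays 1 and 2, at 2.28 and 1.80. No value of Id2 or Id3 came near the -2.13 of Id1 on the array where it was nearest to 0.

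The other polo-like kinases were near 0 or measured in part. Plk1, the mitotic member of the family, had a mean of -0.12 ± 0.068 (SD, n = 3) and did not pass (limma adjusted p = 0.127). Plk4, the kinase of centriole duplication, was measured on arrays 1 and 2, at -0.51 and -0.89. All values of Plk2 were below those of both.

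Targets of p53 other than Cdkn1a went in both directions, with 3 of 11 positive, 5 negative and 3 that did not pass, and a median of -0.16. Trp53inp1, a stress-induced nuclear protein, averaged 2.10 ± 0.046 (SD, n = 3; limma adjusted p = 2.95e-07), and Sesn1, a sestrin of the stress response, 1.48 ± 0.24 (SD, n = 3; adjusted p = 1.09e-05). Epha2, an ephrin receptor, averaged -1.96 ± 0.18 (SD, n = 3; adjusted p = 1.35e-06), and Psrc1, a microtubule protein, -1.25 ± 0.12 (SD, n = 3; adjusted p = 5.75e-06). Ccng1 and Mdm2, classical p53 targets named after their values were seen, had -0.63 (adjusted p = 0.000434) and -0.16 (0.139). Ccng1 averaged -0.32 with 0 kept, and its call ended without moderation (0.0587), and Mdm2 averaged 0.02 with the trend over 5 rows removed and 0.004 over 20 rows. Of the 2 probes of Perp, 1 was measured on arrays 1 and 2, at -3.20 and -2.98, and the other was at 0 throughout. The probes of Fas, Tnfrsf10b and Sfn were at 0 on all 3 arrays.

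Among the other CDK inhibitors, Cdkn2c, the inhibitor p18, averaged -1.32 ± 0.10 (SD, n = 3; limma adjusted p = 3.62e-06), though its call ended with 0 kept (-1.20, adjusted p = 0.0646) and its mean was -0.83 with the trend over 5 rows removed. Cdkn1c, the inhibitor p57, averaged 0.54 ± 0.10 (SD, n = 3; adjusted p = 0.000347). Cdkn3, a phosphatase acting on CDKs, averaged 0.20 ± 0.14 (SD, n = 3; adjusted p = 0.0441), and its call ended without array 1 (0.0604), array 2 (0.164) or array 3 (0.0855). Of Cdkn3, the call also ended with 0 kept (0.147), without moderation (0.173) and with the trend removed over 5 rows (0.788) or 20 rows (0.161). Cdkn1b, the inhibitor p27, was at 0 on all 3 arrays.

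Among CDKs, cyclins and Pcna, which Cdkn1a binds, 9 genes were measured, with 4 negative, 2 positive and 3 that did not pass. Ccnd1, the cyclin of growth factor responses, averaged -1.59 ± 0.23 (SD, n = 3; limma adjusted p = 6.96e-06), or -0.79 with 0 kept. Its partner kinases Cdk6 and Cdk4 averaged -1.21 ± 0.19 and -0.99 ± 0.091 (SD, n = 3; adjusted p = 1.52e-05 and 1.38e-05), with -0.50 for Cdk4 when 0 was kept. Cdk1, the mitotic kinase, averaged -1.26 ± 0.13 (SD, n = 3; adjusted p = 5.99e-06), or -0.66 with the trend over 5 rows removed. Ccne2 at 0.76 (0.25 with 0 kept) and Ccnd3 at 0.29, both named after their values were seen, were the positive genes, and the call of Ccnd3 ended with the median over its probes (0.09, adjusted p = 0.267).

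All 3 measured Gadd45 genes, growth arrest and stress sensors, were negative: Gadd45g at -1.15 ± 0.16, Gadd45a at -0.93 ± 0.089 and Gadd45b at -0.67 ± 0.16 (SD, n = 3; limma adjusted p = 1.36e-05, 1.8e-05 and 0.000204). With the trend over 5 rows removed Gadd45b averaged -0.40. Each of their values was nearer to 0 than any member's.

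Unfolded protein and integrated stress genes gave 3 positive, 4 negative and 1 not past the test. Chac1, a glutathione-degrading enzyme induced by amino acid and protein folding stress, had -2.20, -2.71 and -1.94 (mean -2.28 ± 0.39, SD, n = 3; limma adjusted p = 7.06e-06), a range that overlapped those of Fos, Jun, Ier3, Id1 and Cdkn1a. Ddit3, the stress factor CHOP, averaged -0.83 ± 0.12 (SD, n = 3; adjusted p = 4.7e-05). Dnajb9, a chaperone partner in the endoplasmic reticulum, averaged 1.09 ± 0.19 (SD, n = 3; adjusted p = 2.74e-05), and Ppp1r15b, a phosphatase subunit of the same response, 0.67 ± 0.045 (SD, n = 3; adjusted p = 6.74e-05).

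The 5 heat shock genes comprised 1 positive, 2 negative and 2 that did not pass. Hsph1, a large heat shock protein, averaged 1.01 ± 0.19 (SD, n = 3; limma adjusted p = 3.73e-05). Bag3, a cochaperone, averaged -1.36 ± 0.21 (SD, n = 3; adjusted p = 1.18e-05), or -0.59 with the trend over 5 rows removed, and Hspb1, a small heat shock protein, -0.29 ± 0.092 (SD, n = 3; adjusted p = 0.00629, and 0.0616 without moderation). Dnajb1 had a mean of -0.17 (adjusted p = 0.159). It was called without array 2 (-0.30, adjusted p = 0.014) and had a mean of 0.02 with the trend removed.

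Of 4 oxidative and metal stress genes 3 were negative and 1 positive. The metallothionein Mt1 averaged -1.22 ± 0.17 (SD, n = 3; limma adjusted p = 1.2e-05), or -0.61 with 0 kept. Srxn1, which repairs peroxiredoxins, averaged -1.12 ± 0.25 (SD, n = 3; adjusted p = 4.95e-05), and Txnrd1, thioredoxin reductase, -0.98 ± 0.14 (SD, n = 3; adjusted p = 2.46e-05, and 0.0887 with 0 kept). The ferritin light chain gene Ftl1 averaged 0.28 ± 0.20 (SD, n = 3; adjusted p = 0.025). Its call ended without array 2 (0.0914), without array 3 (0.0968), with 0 kept (0.168), with the median over its probes (0.0671) and without moderation (0.191).

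**Figure D4:**
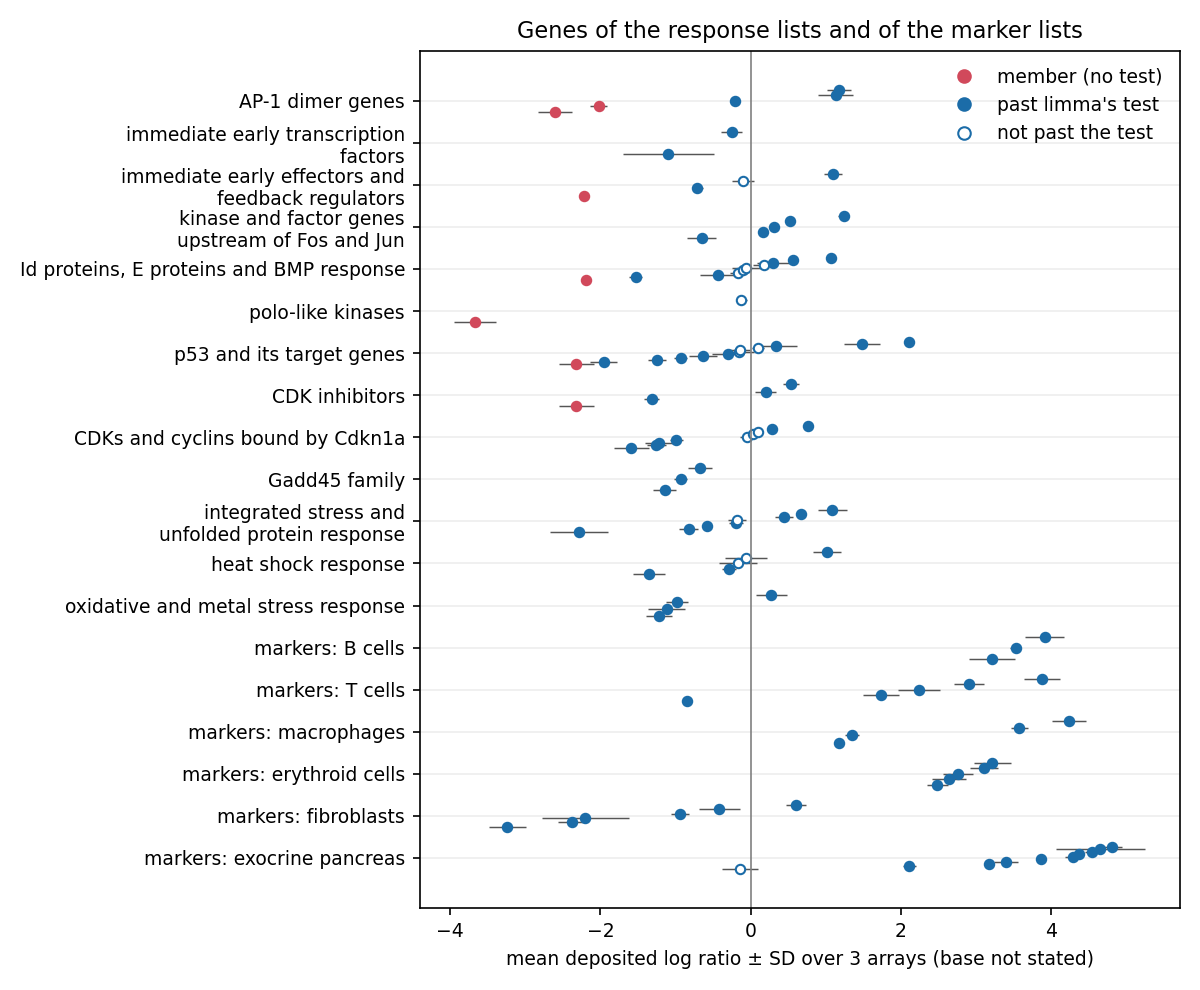
Mean log ratio ± SD over 3 arrays of the measured genes on 13 response lists and 6 marker lists (members red, with no test, other genes past limma's test filled blue, the rest open). The members lie between -3.67 and -2.02, Chac1 at -2.28 is the other response gene drawn in that range, and blood cell markers lie mostly right of 0. Genes without a value on all 3 arrays are not drawn.

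Markers of blood cells were mostly positive and those of fibroblasts mostly negative, and their part in the members' values was not tested. Of the markers measured, 3 of 3 B cell genes were positive (3.21 to 3.91), as were 4 of 5 T cell genes (1.73 to 3.88, with Cd3d at -0.85), 4 of 4 macrophage genes (1.18 to 4.24) and 5 of 5 erythroid genes (2.48 to 3.22). The macrophage marker Cd68 and the erythroid marker Alas2 had a value on 1 array each, -0.07 and -0.63, on the other side from most of their lists. Of 6 fibroblast genes 5 were negative (-3.24 to -0.42) and Pdgfrb was positive at 0.61. Exocrine pancreas genes, which spleen is not known for, were positive for 9 of 10 (2.11 to 4.80, with Cel at -0.14). Globin and other family probes can bind related genes.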

How the data were processed

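The values are signed log ratios, deposited by the authors for 16273 probes on each array. How the arrays were made, scanned, background-corrected and normalized is not stated in the sources used here, nor are log base and numerator. The design had assumed log2 ratios, so values were used as deposited. Values of exactly 0 (3940, 4356 and 4051 probes on arrays 1 to 3) were treated as missing, and 11086 probes had a value on each array. Pearson's r between arrays was 0.952 to 0.969 across probes.

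Gene names came from the supplied platform annotation (12336 probes with 1 symbol, 61 with several), checked by gene ID against RefSeq GRCm38.p6, with 0 symbols changed. Probes were averaged into 6077 genes, and limma 3.58.1 in R 4.3.3 tested the mean ratio of each (intercept fit against 0, two-sided, Benjamini-Hochberg adjusted p under 0.05), after a check on simulated data. Members and lists were chosen with earlier results of these data known, and lists describe and are not tested. Named were, per list, up to 4 genes with the largest absolute mean, and others as stated. Other settings were array centring, scaling or quantile normalization, 0 kept as a value, probes on at least 2 arrays, the median over probes, a running median along the probe rows removed, each array left out, and stricter or unmoderated tests. Promoters came from RefSeq, where 5 of 6 members matched. Figures used matplotlib 3.10.9 in Python 3.11.15.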

Additional observations from a re-analysis of the deposited data

How the results depend on the processing

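For the members, keeping 0, probes on at least 2 arrays and the median over probes change nothing by construction, and leaving out an array cannot move a mean of 3 by 1 SD, so these say nothing of stability. With a trend over 5 probe rows on either side removed the means were -2.91 for Fos, -2.25 for Jun, -1.94 for Id1 and -3.28 for Plk2, and with 20 rows -2.88 for Fos, -2.28 for Jun and -2.39 for Ier3. The cause of these shifts was not tested. Leaving out each array gave -2.68 to -2.47 for Fos, -2.08 to -1.98 for Jun, -2.25 to -2.20 for Ier3, -2.22 to -2.15 for Id1, -3.80 to -3.52 for Plk2 and -2.44 to -2.22 for Cdkn1a. Of the 6077 genes 2253 were called negative and 2017 positive. Testing against a 1.5-fold change, a stricter null, left 582 and 626 in base 2, and 895 and 876 in natural logs. Without moderation 1395 were negative. With 0 kept, 7984 genes were tested. The calls of Nr4a2, Srf, Id3, Id2 and Cdkn3 ended in that setting although their means did not change. Among the 65 listed genes the 1.5-fold test left 16 negative and 9 positive in base 2. In natural logs it left 21 negative and 11 positive. Under this stricter null, negative calls made up a larger share of the listed genes than of all 6077, a difference that was not tested. Nothing is read from it, because the lists were chosen with earlier results of these data known. Leaving out an array gave 1945 to 2206 negative and 1715 to 1945 positive genes, and 25 to 30 and 18 to 19 listed ones. The 1.5-fold test in base 2 also ended the calls of Jund, Nr4a2, Srf, Sgk1, Mapk14, Creb1, Araf, Tcf3, Id3, Cdkn1c, Cdkn3, Gadd45b, Ppp1r15b, Hspb1, Ftl1, Id2, Map2k2, Ccng1, Ccne2 and Ccnd3. At an adjusted p under 0.01, 24 negative and 17 positive of the 65 listed genes were left, against 1849 and 1653 of the 6077. Of the genes named, Jund, Srf, Cdkn3, Ftl1, Id2 and Map2k2 were not among those left. No paired analysis was possible because the arrays form 1 group. Signal over background is unknown here, so weak and strong spots could not be told apart.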

Other observations

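Genes whose promoter windows hold the motifs of the members had ratios on both sides of 0, given here as values with no test. Of 4916 measured genes with a window, 37.0% were called negative and 33.2% positive, with a median log ratio of -0.03. Among them, 167 held the full CRE seen in Plk2, with a median log ratio of -0.11, of which 73 (43.7%) were called negative and 49 (29.3%) positive. The CRE core seen in Fos was held by 616 genes with a median of -0.09 (251 or 40.7% negative, 181 or 29.4% positive). The AP-1 variant of Jun was held by 184 with a median of -0.09 (68 or 37.0% negative, 50 or 27.2% positive). For the TATA box the figures were 510 genes and a median of -0.02 (180 or 35.3% negative, 172 or 33.7% positive). For the NF-Y box they were 2083 genes and a median of -0.03 (36.8% negative, 33.5% positive). For the GC box they were 2852 genes and a median of -0.05 (39.0% negative, 33.7% positive). The NF-kB type sequence of Ier3 was held by 17 genes, 7 called negative and 7 positive. The p53 site of Cdkn1a was held by 6 genes with a median of -0.62, 4 called negative and 1 positive. Motif genes include the members themselves.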
